A study of Mus musculus with 16 samples.

Results

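Transcript levels of 10 genes of the endoplasmic reticulum (ER) stress response and the integrated stress response were followed in C2C12, an established line of mouse myoblasts whose cells leave the cycle and fuse once the serum is reduced. The genes were Atf4, Ddit3, Trib3, Asns, Chac1, Sesn2, Hspa5, Xbp1, Herpud1 and Atf3, taken as the rows of the count tables whose Ensembl identifiers map to these symbols, 10 of 49585 genes. All 10 were tested in every comparison. Bulk RNA-seq covered 16 libraries in 2 tables of 8.

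The first table held WT and AMPK-KO cells as myoblasts (d0) and after 8 days of differentiation (d8), with 2 libraries a group. AMPK-KO cells carry CRISPR-Cas9 lesions in Prkaa1 and Prkaa2, the catalytic α1 and α2 subunits of AMP-activated protein kinase. The RNA-seq of AMPK-KO cells came from 2 independent knockout lines, and the labels do not say which library came from which line. The second table held AMPK-/- cells at d0 in which a FLAG-BirA tag and an EGFP sequence were placed at the endogenous Tet2 start, either with wild-type TET2 (TET2-WT) or with glutamate for serine 97 (TET2-S97E), as 2 clones a genotype with 2 libraries a clone. All libraries of the second table, controls included, are therefore from cells without AMPK. Nothing in the labels states that replicates were separate cultures, so the p-values measure the spread between these samples, which may be technical and, in AMPK-KO, may also be between lines.

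Cells sense several kinds of stress through kinases that phosphorylate the translation factor eIF2α. General translation then falls while Atf4 mRNA is translated better, and ATF4 switches on genes of amino acid supply together with Ddit3 (CHOP), Trib3, Chac1, Sesn2 and Atf3. Misfolded protein in the ER activates one of these kinases, PERK, and also the sensors IRE1, which splices Xbp1 mRNA, and ATF6, and these raise chaperones such as Hspa5 (BiP) and degradation factors such as Herpud1. In muscle cells this response is known to be engaged as myoblasts differentiate. The counts are of transcripts, so neither eIF2α phosphorylation, ATF4 protein nor Xbp1 splicing was measured.

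The short sequence elements through which these factors are known to act were looked for in the RefSeq promoters of the members (GRCm38.p6, 250 bases before to 50 after the start), both strands, and those found upstream of the start are shown so that the members holding each element can be compared. The core of the C/EBP-ATF response element (CARE, TGATGNAA) was present in the promoters of 5 members (Asns, Atf3, Chac1, Herpud1 and Trib3). It was in any promoter of that length for 4.51% of 27025 genes, and in 3.97% of the 32851 single promoters. The ER stress response element (ERSE, CCAAT and CCACG with 9 bases of any kind between them) was present in Hspa5 alone of the members and in 0.137% of genes, and the second type (ERSE-II, ATTGG and CCACG with 1 base of any kind between them) in Herpud1 alone and in 0.0444%. The CARE and ERSE-II matches in Herpud1 do not overlap. The letters TGACGTGG (the core of the unfolded protein response element, in 0.714% of genes) and TGACGTCA (the ATF/CREB site, in 2.03%) were not in the window of any member, which says only that these letters are not there. Atf4, Ddit3, Sesn2 and Xbp1 held none of the 5 elements in this window. Capitals mark the matched letters, read 5′ to 3′ along the gene, and the strand given is that of the gene. Asns holds the CARE letters as written, whereas in Herpud1, Chac1 and Atf3 the capitals are their reverse complement. A match is a description and not evidence of binding.
Hspa5 ERSE, + strand, chr2:34772017-34772051: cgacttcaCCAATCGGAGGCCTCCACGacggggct
Herpud1 ERSE-II, + strand, chr8:94386369-94386395: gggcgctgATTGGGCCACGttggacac
Herpud1 CARE, + strand, chr8:94386309-94386332: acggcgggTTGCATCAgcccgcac
Chac1 CARE, + strand, chr2:119351041-119351064: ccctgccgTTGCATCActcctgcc
Atf3 CARE, - strand, chr1:191183428-191183451: tctcgcacTTGCATCAccaagtcc
Asns CARE, - strand, chr6:7693217-7693240: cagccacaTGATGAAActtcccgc
The match in Trib3 lay past the start and is not printed.

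Library totals ran from 17883417 to 24663079 counts in the first table and from 19801909 to 37790358 in the second. Values are given as CPM, the counts scaled to a common library size after TMM normalization, separately for each table, so levels are compared only within a table. The edited genes Prkaa1 and Prkaa2 were used to check the labels of the AMPK-KO libraries. Prkaa1 measured 158.5 and 158.6 CPM in WT d0 and 79.7 and 78.03 in AMPK-KO d0 (log2 fold change -1.01, edgeR's quasi-likelihood test, Benjamini-Hochberg adjusted p = 0.0116), and 126 and 125 CPM in WT d8 against 83.3 and 82.5 in AMPK-KO d8 (-0.60, edgeR adjusted p = 0.0419). Prkaa2 measured 6.23 and 10.1 CPM in WT d8 and 1.26 and 0.826 in AMPK-KO d8 (-2.96, edgeR adjusted p = 0.0190), and 1.69 and 1.79 CPM in WT d0 against 0.209 and 0.421 in AMPK-KO d0 (edgeR adjusted p = 0.0527). Transcript of both subunits remained in AMPK-KO cells. Tet2 measured 22.6 to 58.4 CPM in the 4 TET2-WT libraries and 7.89 to 22.1 in the 4 TET2-S97E libraries (edgeR adjusted p = 0.0621). Both genotypes carry the same tag and EGFP sequence, so the Tet2 level does not check their labels.

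The cultures held muscle markers throughout. Des, the intermediate filament of muscle cells, had the highest CPM of 4 myoblast markers in all 16 libraries, at 691 to 3293 CPM. Of 5 markers of other cell types, Ptprc, Pecam1, Epcam and Adipoq stayed at or below 0.405 CPM in every library, and Pdgfra, which fibroblasts express, measured 13.3 to 87.8 CPM. The summed level of 5 myotube markers (Myog, Ckm, Acta1, Myh3 and Tnnt3) was 122 and 86.3 CPM in WT d0, 17.3 and 11.9 in AMPK-KO d0, 4518 and 6219 in WT d8 and 1552 and 9161 in AMPK-KO d8. The AMPK-KO d8 libraries thus differed widely from each other in this sum. In bulk RNA, fewer cells of a type and less RNA per cell cannot be told apart, and the part of fusion in the member values below was not tested.

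Per length, on the TPM scale (counts over exon length, scaled to the same sum in each library), Hspa5 was the most abundant member in 14 of the 16 libraries, at 514 to 1108 TPM. Atf4 came next, at 333 to 894 TPM, and was above Hspa5 in WT d8 replicate 2 (894 against 632 TPM) and in TET2-WT clone 2 replicate 1 (647 against 545 TPM). Atf3 was the least abundant member in 11 libraries, at 2.05 to 66.7 TPM over the 16. The 10 members thus spanned from a scarce induced factor to abundant transcripts, and the smallest count of any member in any library was 28, for Atf3 in AMPK-KO d0 replicate 1.

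**Figure D1:**
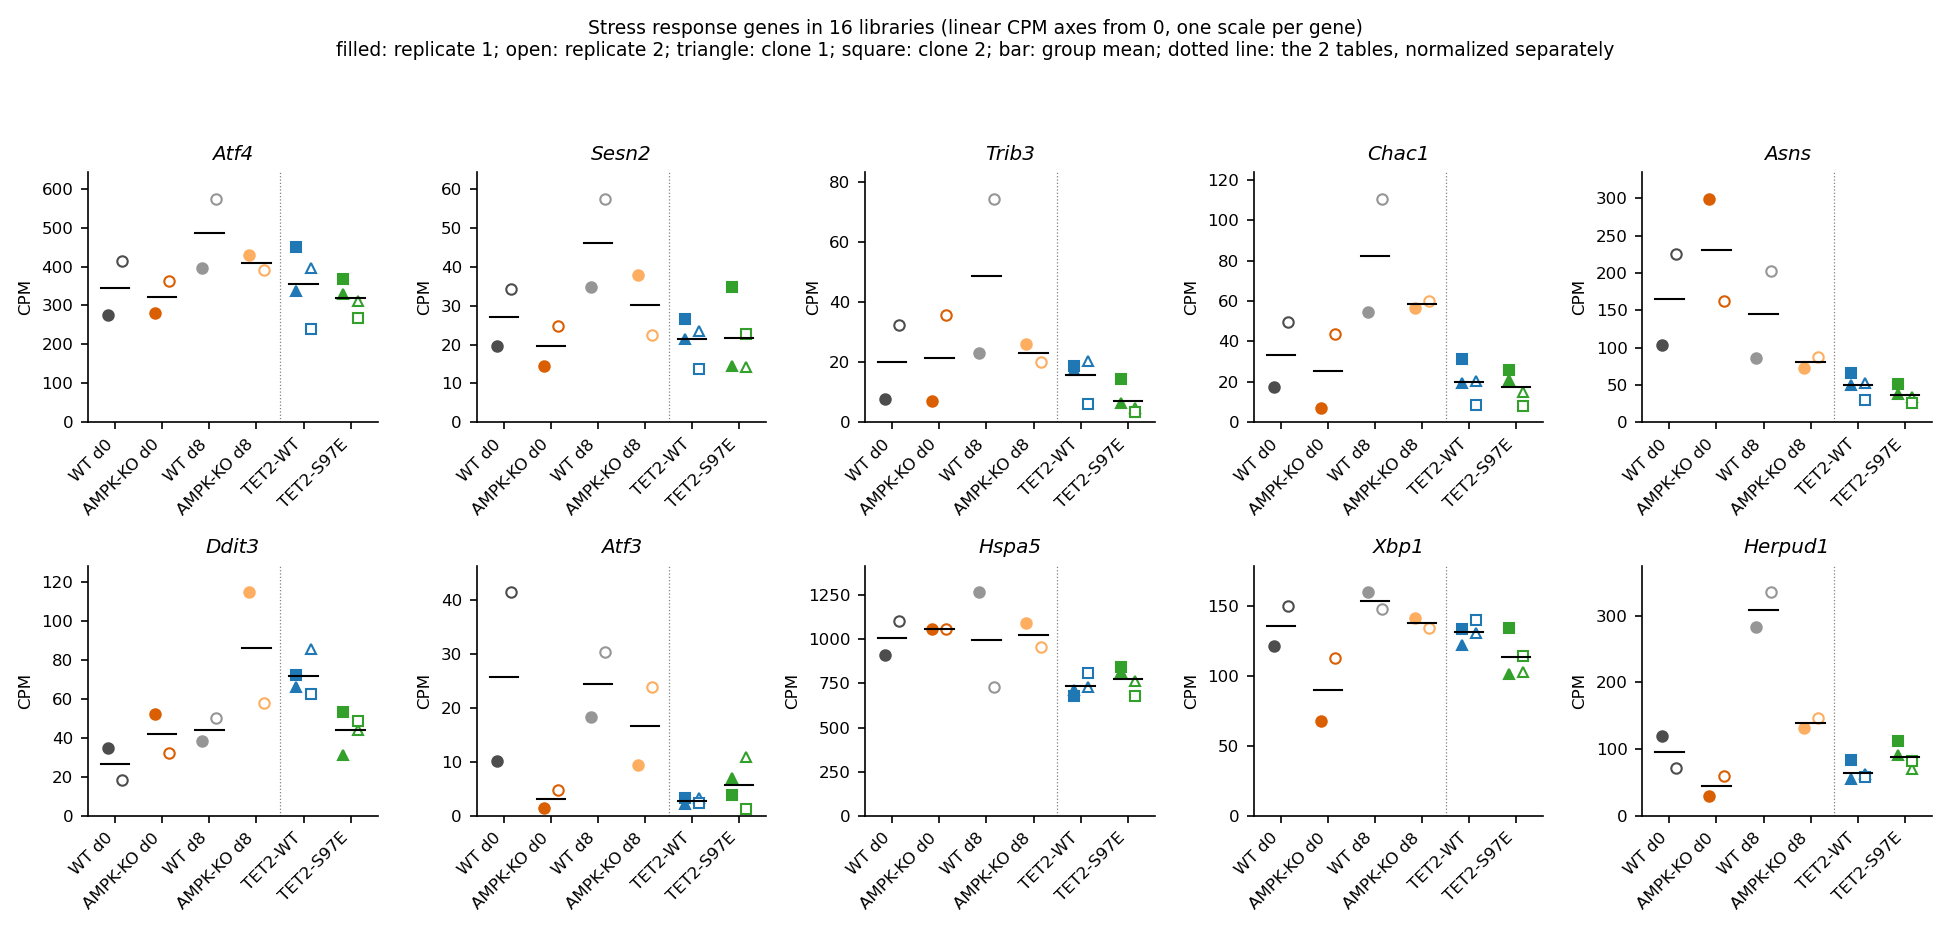
CPM (linear axes from 0, one scale per gene) of the 10 members in each of the 16 libraries by group, with replicate 1 filled, replicate 2 open, clone 1 as triangles, clone 2 as squares and bars at the group means. Herpud1 is highest in the WT d8 libraries (283 and 335 CPM), and the 4 TET2-WT libraries lie above the 4 TET2-S97E libraries for Ddit3.

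The comparison of d8 with d0 takes differentiation together with the reduced serum and the time in culture, which cannot be told apart. The paper reports that AMPK-KO cells lost all potential to form myotubes, judged by morphology and myosin heavy chain protein. Transcripts of all 5 myotube markers were called higher at d8 in both genotypes. In WT cells, 1 of the 10 members rose, Herpud1, and none fell, where 12.4% of the 14329 genes tested were called. In AMPK-KO cells again only Herpud1 was called of the 10 members, and it rose, where 9.76% of genes were called. One call in 10 is near the background share in both in this fit. Without a filter on low counts it was 5 of 10 in each genotype, with the shares of all genes given in the section on processing. The median log2 fold change of the members was 0.613 in WT and 0.617 in AMPK-KO, beside 0.0132 and 0.0211 for all genes tested. In WT it was 0.258 without WT d8 replicate 2, 0.307 without WT d0 replicate 1 and 1.04 without WT d0 replicate 2. In AMPK-KO it was 0.267 without AMPK-KO d0 replicate 1, 0.376 without AMPK-KO d8 replicate 1 and 1.06 without AMPK-KO d0 replicate 2.

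Herpud1 encodes an ER membrane protein that brings misfolded proteins to the degradation machinery (chromosome 8, 94386438 to 94395377, + strand, GRCm38). It measured 119.7 and 72.2 CPM in WT d0, 30.0 and 59.1 in AMPK-KO d0, 283 and 335 in WT d8, and 131 and 147 in AMPK-KO d8. The d8 libraries of each genotype lay above its d0 libraries, as for 31.3% of all genes tested in WT and 30.2% in AMPK-KO. The order of the group means was WT d8, AMPK-KO d8, WT d0 and AMPK-KO d0, with no overlap between neighbours. The rise was 3.22-fold in WT (log2 fold change 1.69 ± 0.36, SE, n = 2 and 2, edgeR adjusted p = 0.0299) and 3.12-fold in AMPK-KO (1.64 ± 0.36, n = 2 and 2, edgeR adjusted p = 0.0376). The difference between these changes was -0.05 ± 0.50 (SE, edgeR adjusted p = 1.00).

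The call on Herpud1 was lost in WT without WT d0 replicate 2 (log2 fold change 1.38, edgeR adjusted p = 0.148), without WT d8 replicate 1 (1.78, 0.0968) or without WT d8 replicate 2 (1.53, 0.167), fits in which at most 0.0133% of all genes were called. It was lost in AMPK-KO without either AMPK-KO d0 library, either AMPK-KO d8 library or either WT d8 library, at log2 fold changes from 1.21 to 2.22, fits in which at most 6.14% of all genes were called.

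Atf4, the transcription factor at the head of the response, measured 277 and 415 CPM in WT d0, 282 and 362 in AMPK-KO d0, 397 and 574 in WT d8 and 429 and 391 in AMPK-KO d8. The AMPK-KO d8 libraries lay above the AMPK-KO d0 libraries, as for 30.2% of all genes tested, and in WT the days overlapped. Sesn2, a leucine sensor that restrains mTORC1, measured 19.6 and 34.4 CPM in WT d0, 14.4 and 24.9 in AMPK-KO d0, 34.9 and 57.6 in WT d8 and 38.02 and 22.5 in AMPK-KO d8. Its days overlapped in AMPK-KO and were only just apart in WT. Neither gene passed the test in any comparison of the first table.

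Trib3, a pseudokinase that feeds back on ATF4 and CHOP, measured 7.62 and 32.3 CPM in WT d0, 7.22 and 35.6 in AMPK-KO d0, 23.0 and 74.5 in WT d8 and 25.9 and 20.0 in AMPK-KO d8. Chac1, which degrades glutathione, measured 17.3 and 49.6 CPM in WT d0, 6.91 and 43.5 in AMPK-KO d0, 54.4 and 111 in WT d8 and 56.4 and 60.2 in AMPK-KO d8. Replicate 2 was far above replicate 1 for both genes in 3 of the 4 groups. For Chac1 every d8 library lay above every d0 library of its genotype, as for 31.3% of all genes tested in WT and 30.2% in AMPK-KO. The days overlapped for Trib3. Neither passed the test between days, with standard errors of 0.825 in WT for Chac1 and 0.923 for Trib3 on the log2 scale.

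Asns, asparagine synthetase, went another way. It measured 103 and 226 CPM in WT d0, 299 and 162 in AMPK-KO d0, 86.3 and 203 in WT d8 and 73.0 and 87.1 in AMPK-KO d8. In AMPK-KO cells both d8 libraries lay below both d0 libraries, as for 28.9% of all genes tested (log2 fold change -1.53 ± 0.53, SE, n = 2 and 2, edgeR adjusted p = 0.112). In WT the days overlapped. DESeq2 called the AMPK-KO difference (adjusted p = 0.0129), as it did 9.54% of the genes with any count. The difference between genotypes in this change was -1.34 ± 0.73 (SE, edgeR adjusted p = 1.00), and was not called by DESeq2.

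Ddit3, which encodes CHOP, the factor that carries prolonged stress towards cell death, lies on chromosome 10 (127290774 to 127296288, + strand). It measured 34.4 and 18.4 CPM in WT d0, 52.1 and 32.1 in AMPK-KO d0, 38.2 and 49.8 in WT d8 and 114 and 57.7 in AMPK-KO d8. At d8 both AMPK-KO libraries were above both WT libraries, as for 30% of all genes tested, and at d0 the groups overlapped. The AMPK-KO difference was 0.97 ± 0.43 at d8 (SE, n = 2 and 2, edgeR adjusted p = 0.238), and d8 against d0 in AMPK-KO was 1.03 ± 0.43 (edgeR adjusted p = 0.170). Without 1 library these values ran from 0.41 to 1.345 and from 0.46 to 1.42. In GENCODE M21 the exons of Ddit3 share 105 bases with a second Ddit3 identifier on the same strand, which is not analysed here, and 68 bases with Mars and 13 with Gm4189 on the opposite strand. Whether counting used strand is not given in the sources used here, and without it the reads cannot be told apart in those bases. Mars, methionyl-tRNA synthetase, passed no test in either table.

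Atf3, a stress-induced repressor that is also an immediate early gene, lies on chromosome 1 (191170296 to 191218039, - strand). It measured 10.1 and 41.5 CPM in WT d0, 1.47 and 4.68 in AMPK-KO d0, 18.4 and 30.4 in WT d8 and 9.38 and 23.8 in AMPK-KO d8. The AMPK-KO d0 libraries were below all the others. The d0 difference between AMPK-KO and WT was -3.06 ± 0.86 on the log2 scale (SE, n = 2 and 2, edgeR adjusted p = 0.110), from -4.15 without AMPK-KO d0 replicate 2 to -1.71 without WT d0 replicate 2, and d8 against d0 in AMPK-KO was 2.42 ± 0.84 (n = 2 and 2, edgeR adjusted p = 0.115). DESeq2 called both (adjusted p = 0.000335 and 0.00492), and so did edgeR with a replicate block (0.0120 and 0.0213). The difference of the AMPK-KO effect between d8 and d0 was 2.501 ± 1.14 (SE, edgeR adjusted p = 1.00).

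Hspa5, the main ER chaperone, measured 914 and 1106 CPM in WT d0, 1058 and 1059 in AMPK-KO d0, 1267 and 728 in WT d8 and 1095 and 959 in AMPK-KO d8. All 4 groups overlapped with at least one other, and its fitted log2 fold changes between genotypes and between days lay from -0.04 to 0.07 with standard errors of 0.277. Xbp1, the substrate of IRE1, measured 122 and 150.4 CPM in WT d0, 68.0 and 113 in AMPK-KO d0, 160.1 and 148 in WT d8 and 142 and 134 in AMPK-KO d8. The AMPK-KO d0 libraries were the lowest of the table for Xbp1, at -0.59 ± 0.25 against WT d0 (SE, n = 2 and 2, edgeR adjusted p = 0.235), and d8 against d0 in AMPK-KO was 0.61 ± 0.25 (edgeR adjusted p = 0.158). Without 1 library these values ran from -1.02 to -0.28 and from 0.27 to 1.04.

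**Figure D2:**
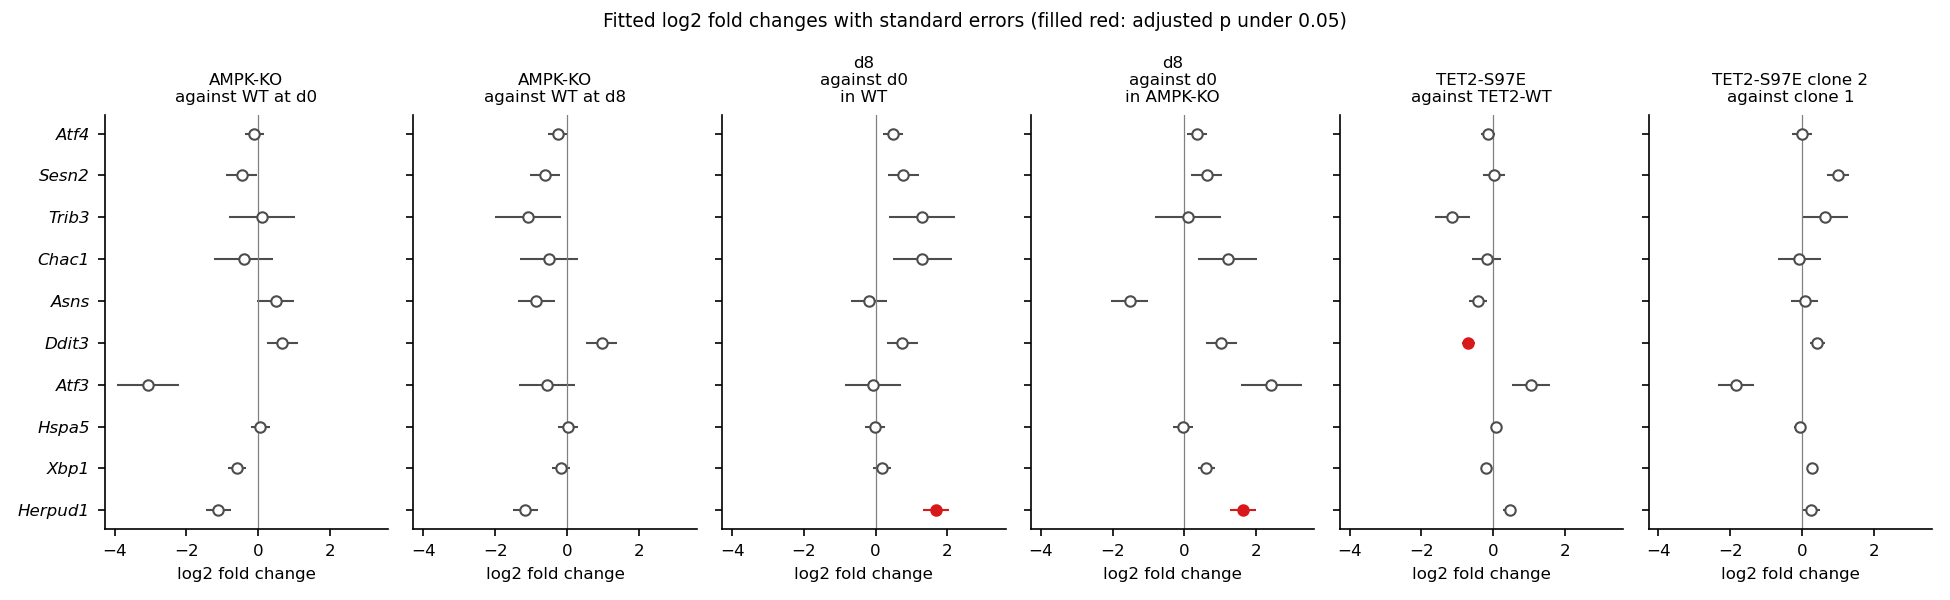
Fitted log2 fold changes (x axis) with standard errors for the 10 members (y axis) in 6 comparisons from edgeR, with calls at an adjusted p under 0.05 filled in red. Calls are seen for Herpud1 in both comparisons of d8 with d0 and for Ddit3 in TET2-S97E against TET2-WT, and Trib3 carries the widest bar in the 4 comparisons of WT and AMPK-KO cells.

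The comparison of AMPK-KO with WT asks whether loss of the energy sensor changes the response. At d0, edgeR called 0 of 10 members, where 3.52% of all genes were called, while 3 of the 10 had an unadjusted p under 0.05, beside 20.9% of all genes, and DESeq2 called 2, Herpud1 and Atf3, beside 5.28% of the genes with any count. The 3 were Atf3, Herpud1 and Xbp1, each lower in both AMPK-KO libraries than in both WT libraries, as were 25.7% of all genes tested. The muscle regulators Myod1 (log2 fold change -3.29, edgeR adjusted p = 0.0147) and Myog (-5.36, adjusted p = 0.0116) were also lower in AMPK-KO d0. Each was the 1 call of its list, of 4 myoblast and 5 myotube markers. Myf5, a regulator of the same family, overlapped between the groups, at 49.1 and 61.9 CPM in WT d0 and 66.7 and 51.7 in AMPK-KO d0. The part of these regulators in the member differences was not tested. At d8, edgeR called 0 of 10, where 5.35% of genes were called, 1 member had an unadjusted p under 0.05, beside 22.8%, and DESeq2 called 1, beside 6.25%, in both cases Herpud1. Herpud1 differed from WT by -1.10 ± 0.36 at d0 (SE, n = 2 and 2, edgeR adjusted p = 0.145) and by -1.15 ± 0.36 at d8 (n = 2 and 2, edgeR adjusted p = 0.113), on the log2 scale. Leaving out 1 library gave -1.70 to -0.70 at d0 and -1.27 to -1.01 at d8. The d8 value was called when the 4 libraries of that day were fitted alone (-1.18, edgeR adjusted p = 0.0338).

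The comparisons at the 2 days share no libraries, but each shares its WT or AMPK-KO libraries with the comparisons of days. The median log2 fold change of the members was -0.254 at d0 and -0.530 at d8, beside -0.00102 and 0.0392 for all genes tested. Single libraries moved these medians. At d0 it was 0.219 without WT d0 replicate 2, 0.0111 without AMPK-KO d0 replicate 1, -0.648 without WT d0 replicate 1 and -0.973 without AMPK-KO d0 replicate 2, and at d8 it was -0.115 without WT d8 replicate 2 and -0.880 without WT d8 replicate 1. For the difference between the AMPK-KO effects at d8 and d0, edgeR called 0 of 10 members and 0% of all genes, 0 of the 10 had an unadjusted p under 0.05, and DESeq2 called 0.

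In WT d0, AMPK-KO d0 and WT d8, 8 of 10 members were higher in replicate 2, beside 52.4%, 49.9% and 53.9% of all genes. The exceptions were Ddit3 and Herpud1 in WT d0, Ddit3 and Asns in AMPK-KO d0, and Hspa5 and Xbp1 in WT d8. In these groups the median ratio of the higher to the lower replicate was 1.82, 1.78 and 1.65 for the members against 1.26, 1.19 and 1.16 for all genes with a mean of at least 1 CPM. In AMPK-KO d8 this median ratio was 1.17 for the members and 1.20 for all genes, and 4 of 10 members were higher in replicate 2, beside 49.4% of all genes. The share of counts from mitochondrial genes was lower in replicate 2 of these 4 groups, at 1.36% and 0.568% in WT d0, 1.16% and 0.666% in AMPK-KO d0, 1.43% and 0.970% in WT d8 and 0.977% and 0.683% in AMPK-KO d8, and its part in the replicate differences was not tested. The widest ratios were 6.29 for Chac1 and 4.93 for Trib3 in AMPK-KO d0, while Hspa5 had 1.00 there.

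The members were set against each other across libraries. Over the 8 libraries of the first table Pearson's r of log2 CPM was 0.937 between Atf4 and Sesn2, 0.934 between Atf4 and Trib3, 0.913 between Atf4 and Chac1, 0.895 between Trib3 and Chac1, 0.881 between Trib3 and Sesn2 and 0.878 between Chac1 and Sesn2. Over the 8 libraries of the TET2 table, which are other libraries, r was 0.613, 0.804, 0.938, 0.772, 0.591 and 0.520 for the same pairs in that order. With these 4 genes Ddit3 had r of -0.0468 to 0.157 over the first 8 libraries and of 0.168 to 0.6999 over the other 8. The ranges were 0.589 to 0.773 and -0.410 to 0.332 for Atf3, and 0.632 to 0.863 and 0.114 to 0.574 for Xbp1. Asns had r of 0.927 with Atf4 and 0.942 with Trib3 in the TET2 table and -0.0640 and 0.0464 in the first, where it was at its highest, 299 CPM, in AMPK-KO d0 replicate 1 with Trib3 and Chac1 at their lowest. Hspa5 had r between -0.345 and 0.0200 with Atf4, Trib3, Chac1, Sesn2 and Asns in both tables. These are descriptions over 8 libraries that share groups and replicates.

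**Figure D3:**
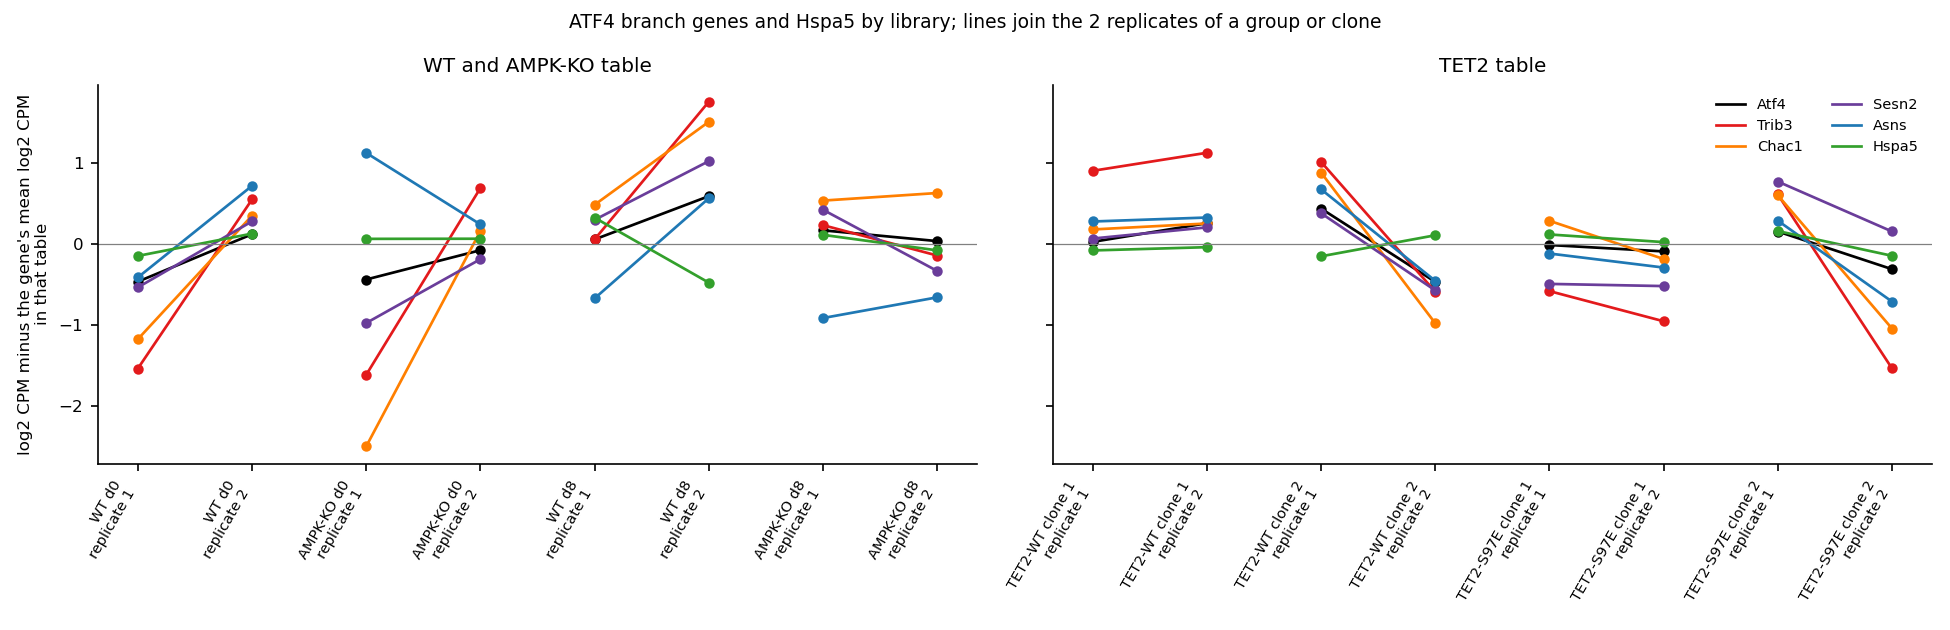
log2 CPM minus each gene's mean in that table (y axis) for Atf4, Trib3, Chac1, Sesn2, Asns and Hspa5 in the 8 libraries of each table (x axis), with lines between the replicates of a group or clone. Trib3, Chac1, Sesn2 and Atf4 are higher in replicate 2 than in replicate 1 of WT d0, AMPK-KO d0 and WT d8 and lower in replicate 2 than in replicate 1 of clone 2 of both TET2 genotypes, and Asns departs from them in AMPK-KO d0.

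Of 9003 genes with a mean of at least 10 CPM in both tables, members left out, those most like Trib3 over the first table included Ccbe1 (r = 0.955), Bin3 (0.943), C1qtnf6 (0.934) and Lsp1 (0.911). Over the TET2 table their r with Trib3 was 0.258, -0.0442, -0.564 and -0.618. These genes were chosen for their r over the first table and not for that over the second. The 5 most like Hspa5 were Dusp6 (0.927), Spred2 (0.917), Creld2 (0.897), Frmd6 (0.895) and Sdc4 (0.853). Over the TET2 table r was 0.422 for Creld2, an ER-resident protein, and from -0.451 to -0.141 for the other 4.

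The other genes of the pathways were described in 7 lists. Beside the counts given for them, the share of all genes with an unadjusted p under 0.05 was 20.9% between genotypes at d0, 22.8% at d8, 31.1% between days in WT, 28.4% in AMPK-KO, 5.09% for the difference between the AMPK-KO effects and 23.5% between TET2 genotypes. DESeq2 called 5.28%, 6.25%, 10.4%, 9.54%, 0.215% and 7.46% of the genes with any count in the same order. Upstream, 14 eIF2α kinases, phosphatase subunits and eIF2B genes held no call in any comparison by edgeR, with 0 to 3 of them at an unadjusted p under 0.05, while DESeq2 called 2 of them between genotypes at d0 and 2 at d8. These counts are of 14 genes and are read beside the shares above. Among 9 tested ER stress sensors and their proteases, Atf6 was higher at d8 than at d0 in both genotypes. Its log2 fold change was 0.84 ± 0.18 (SE) in WT (edgeR adjusted p = 0.0298) and 0.75 ± 0.18 in AMPK-KO (adjusted p = 0.0455). Creb3l2, an ER membrane transcription factor of the same type, rose in AMPK-KO (1.13 ± 0.24, adjusted p = 0.0341). That was 1 call of 9 in WT (11.1%, beside 12.4% of all genes) and 2 of 9 in AMPK-KO (22.2%, beside 9.76%). In fits without 1 library the Atf6 call was lost in 5 of 8 in WT (0.73 to 0.96 over the 8). In AMPK-KO it was lost in 6 of 8 for Atf6 (0.57 to 0.90) and in 6 of 8 for Creb3l2 (0.82 to 1.52). Atf6 measured 174 and 145 CPM in WT d0, 172 and 194 in AMPK-KO d0, 285 and 286 in WT d8 and 275 and 339.5 in AMPK-KO d8, with every d8 library above every d0 library. Within a genotype this held for 31.3% of all genes tested in WT and 30.2% in AMPK-KO.

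Of 18 ER chaperones and folding enzymes, 1 was called between days in each genotype (5.56%, beside 12.4% of all genes in WT and 9.76% in AMPK-KO), Dnajb9, a co-chaperone of BiP that is a target of IRE1. It rose by 1.16 ± 0.22 in WT (SE, edgeR adjusted p = 0.0210) and by 1.13 ± 0.22 in AMPK-KO (adjusted p = 0.0283) on the log2 scale. Its level went from 42.3 and 28.1 CPM in WT d0 to 83.5 and 73.9 in WT d8. Without 1 library its call was lost in 3 of 8 fits in WT (0.91 to 1.47 over the 8) and in 6 of 8 in AMPK-KO (1.05 to 1.20). The list's median was -0.114 in WT and 0.0166 in AMPK-KO, and Hsp90b1, the gene of the list with the highest CPM in 10 of the 16 libraries, was not called. Of 14 tested genes of ER-associated degradation, 0 were called between days in WT. There 5 had an unadjusted p under 0.05, beside 31.1% of all genes, and DESeq2 called 2, beside 10.4%. In AMPK-KO 2 rose (14.3%, beside 9.76% of all genes), Os9 (0.85 ± 0.20, edgeR adjusted p = 0.0422), a lectin, and Herpud2 (0.91 ± 0.19, adjusted p = 0.0354). Each lost the call in 6 of 8 fits without 1 library. Over the 8 the log2 fold change ran from 0.75 to 0.94 for Os9 and from 0.85 to 0.96 for Herpud2. Herpud2, a paralog of Herpud1, measured 70.1 and 47.6 CPM in WT d0, 47.1 and 49.4 in AMPK-KO d0, 88.7 and 89.0 in WT d8 and 90.9 and 90.1 in AMPK-KO d8.

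Of 19 other amino acid supply genes that ATF4 regulates, 16 were fitted lower and 4 were called between d8 and d0 in AMPK-KO, 3 lower and 1 higher, beside 9.76% of all genes called, with a list median of -1.40 on the log2 scale. Phgdh (-2.10 ± 0.47, SE, edgeR adjusted p = 0.0396) and Shmt2 (-1.86 ± 0.46, adjusted p = 0.0495), enzymes of serine and glycine synthesis, and the glutamine carrier Slc1a5 (-1.58 ± 0.31, adjusted p = 0.0285) fell, while Slc38a2, another amino acid carrier and the one with the highest CPM of the list in 15 libraries, rose (0.80 ± 0.17, adjusted p = 0.0351). Phgdh measured 787 and 463 CPM in AMPK-KO d0 and 174 and 117 in AMPK-KO d8, against 189 and 423 in WT d0 and 114 and 185 in WT d8. In WT the list's median was -0.0361 and 1 of 19 was called, beside 12.4% of all genes, the glycine carrier Slc6a9, which rose (1.28 ± 0.28, edgeR adjusted p = 0.0306).

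The summed level of these 19 genes was 2083 and 3252 CPM in WT d0, 4622 and 3149 in AMPK-KO d0, 2109 and 3159 in WT d8 and 2278 and 2203 in AMPK-KO d8. AMPK-KO d0 replicate 1, the library with the highest sum, was also the one with the lowest Trib3 and Chac1 of the first table. Without it the median of the list between days in AMPK-KO was -0.665 and 0 of 19 were called by edgeR, with 16 still fitted lower. At d0 the median difference of AMPK-KO from WT was 0.787, with 14 of 19 fitted higher and 0 called by edgeR (7 with an unadjusted p under 0.05, beside 20.9% of all genes, and 3 called by DESeq2, beside 5.28%). For the difference between the AMPK-KO effects at d8 and d0, 18 of 19 were fitted lower with a median of -1.07, and 0 were called by edgeR or DESeq2 (6 with an unadjusted p under 0.05, beside 5.09% of all genes).

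The cytosolic aminoacyl-tRNA synthetases charge tRNAs and include many ATF4 targets. In AMPK-KO, 19 of 20 were lower in both d8 libraries than in both d0 libraries, beside 28.9% of all genes tested, with a median of -0.593, and 1 was called, a share below the 9.76% of all genes. It was Vars, which fell (-1.25 ± 0.29, SE, edgeR adjusted p = 0.0436). In WT, 10 were fitted lower and 10 higher with a median of -0.0382, and 0 were called by edgeR (1 with an unadjusted p under 0.05, 1 called by DESeq2). Without AMPK-KO d0 replicate 1 the AMPK-KO median was -0.469 and 0 were called by edgeR, with 19 still fitted lower. Their summed level was 5834 and 4569 CPM in AMPK-KO d0, 3071 and 3632 in AMPK-KO d8, 3166 and 4498 in WT d0 and 3037 and 4211 in WT d8.

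**Figure D4:**
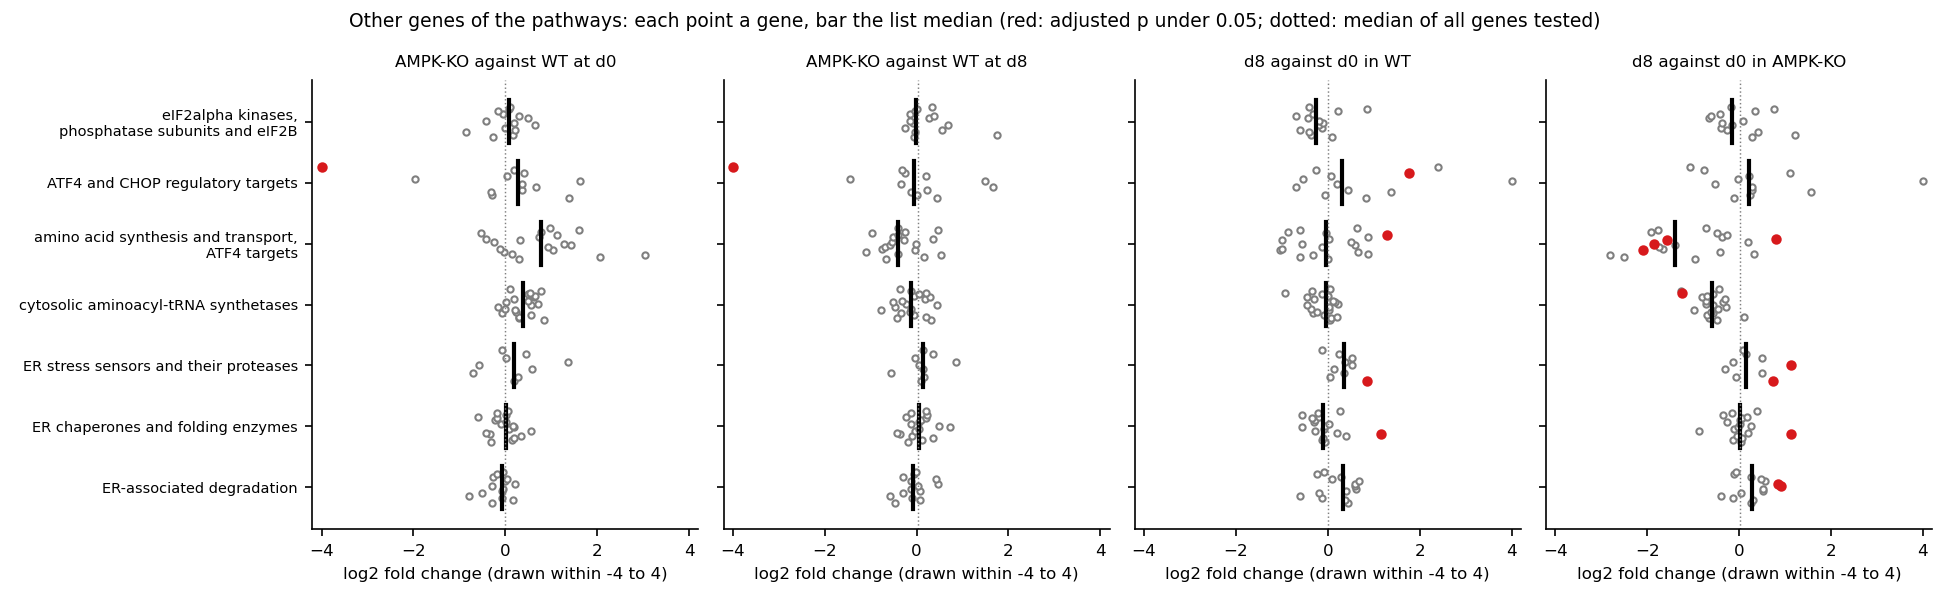
Fitted log2 fold changes (x axis, values beyond -4 or 4 drawn at the limit) of the genes of 7 pathway lists (y axis) in the 4 comparisons of the first table, with the list medians as bars, calls in red and the median of all genes tested as a dotted line. The amino acid list lies at a median of -1.40 and the synthetases at -0.593 between d8 and d0 in AMPK-KO, against -0.0361 and -0.0382 in WT.

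Among 12 further regulatory targets of ATF4 and CHOP, Vldlr, a lipoprotein receptor, was called in both comparisons of genotype. It measured 16.2 and 2.66 CPM in WT d0, 0.157 and 0.0468 in AMPK-KO d0, 47.4 and 51.9 in WT d8 and 0.0408 and 0.0486 in AMPK-KO d8 (edgeR adjusted p = 0.0237 at d0 and 0.00773 at d8). With so few counts in AMPK-KO no fold is given. It was the 1 gene of its list called in either comparison of genotype (8.33%, beside 3.52% of all genes at d0 and 5.35% at d8). Nupr1, a stress-induced chromatin protein, was the 1 called between days in WT (log2 fold change 1.78 ± 0.42, SE, edgeR adjusted p = 0.0392). That share of 8.33% stood beside 12.4% of all genes. The Nupr1 call was lost in 5 of 8 fits without 1 library (1.14 to 2.36 over the 8). Atf5, with the highest CPM of the list in 15 of 16 libraries, passed no test.

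Atf3 is also an immediate early gene, and 10 others were set beside it. At d0 Jund was lower in AMPK-KO (log2 fold change -1.21, edgeR adjusted p = 0.0322) and at d8 Jun was higher (1.75, adjusted p = 0.0195). No other of the 10 was called in the first table. The share called was 10% at d0 and at d8, beside 3.52% and 5.35% of all genes. Between days it was 0%, beside 12.4% in WT and 9.76% in AMPK-KO. Without 1 library the Jund call was lost in 6 of 8 fits (-1.54 to -0.97 over the 8) and the Jun call in 2 of 8 (1.35 to 2.06). Jun measured 250 and 217 CPM in WT d0 and 647 and 495 in AMPK-KO d0, the opposite order to Atf3.

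The TET2 table compares TET2-S97E with TET2-WT and asks whether a TET2 that mimics phosphorylation at S97 changes the response in cells without AMPK. In TET2-S97E, edgeR called 1 of 10 members, Ddit3, which fell, where 6.98% of 13433 genes were called. The median log2 fold change of the members was -0.169, beside 0.0110 for all genes tested, and it was 0.0112 without TET2-WT clone 2 replicate 1, -0.0412 without TET2-S97E clone 2 replicate 2 and -0.326 without TET2-S97E clone 2 replicate 1. Ddit3 measured 66.0 and 85.5 CPM in TET2-WT clone 1, 72.3 and 62.1 in TET2-WT clone 2, 31.1 and 43.9 in TET2-S97E clone 1 and 52.9 and 48.5 in TET2-S97E clone 2. All 4 TET2-S97E libraries were below all 4 TET2-WT libraries, as for 8.12% of all genes tested, a fall of 0.69 ± 0.18 on the log2 scale (log2 fold change -0.69, SE, n = 4 and 4, edgeR adjusted p = 0.0458), or 1.62-fold.

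The 2 libraries of a clone are not independent, and neither fit that takes account of clones called Ddit3. The log2 fold change was -0.72 with counts summed per clone (edgeR adjusted p = 0.353) and -0.70 in limma-voom when clone entered as a random effect (limma adjusted p = 0.145). Leaving out a clone gave -0.61 without TET2-WT clone 1 (edgeR adjusted p = 0.193), -0.78 without TET2-WT clone 2 (0.0887) and -0.51 without TET2-S97E clone 1 (0.139), while Ddit3 was still called without TET2-S97E clone 2 (-0.93, 0.0313). The call was also lost in 6 of 8 fits without 1 library, at log2 fold changes from -0.74 to -0.56, that is without either library of TET2-WT clone 1, TET2-WT clone 2 replicate 1, either library of TET2-S97E clone 1 or TET2-S97E clone 2 replicate 2. A replicate block ended the call too. Every refit kept the direction. Between the clones of TET2-S97E, Ddit3 differed by 0.43 ± 0.21 (SE, n = 2 and 2, edgeR adjusted p = 0.303). Mars, on the opposite strand, differed between genotypes by -0.15 (edgeR adjusted p = 0.582).

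Myotube markers moved with the same contrast. Their summed level was 10.2, 13.1, 28.2 and 213 CPM in the TET2-WT libraries and 4568, 1430, 1457 and 298 in the TET2-S97E libraries, with 4 of the 5 called higher, Myog, Ckm, Acta1 and Myh3, and Acta1 at the highest CPM in 13 of the 16 libraries of both tables. Of the 5, 0 were called by edgeR with counts summed per clone and 1 by limma-voom when clone entered as a random effect (Myog). By edgeR 0 were called without TET2-WT clone 1 or without TET2-S97E clone 1. All 5 were called without TET2-WT clone 2 or without TET2-S97E clone 2. The sum was highest in the library with the lowest Ddit3, TET2-S97E clone 1 replicate 1. Their part in the Ddit3 difference was not tested.

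Trib3 measured 17.5 and 20.4 CPM in TET2-WT clone 1, 18.8 and 6.21 in TET2-WT clone 2, 6.25 and 4.83 in TET2-S97E clone 1 and 14.3 and 3.23 in TET2-S97E clone 2. The genotypes overlapped through replicate 2 of TET2-WT clone 2 and replicate 1 of TET2-S97E clone 2, and the difference was -1.14 ± 0.49 on the log2 scale (SE, n = 4 and 4, edgeR adjusted p = 0.196). Herpud1 measured 55.1 and 61.9 CPM in TET2-WT clone 1, 82.8 and 57.8 in TET2-WT clone 2, 91.5 and 69.9 in TET2-S97E clone 1 and 111 and 82.0 in TET2-S97E clone 2. Its difference was 0.46 ± 0.18 (SE, n = 4 and 4, edgeR adjusted p = 0.152), and 1 TET2-WT library, clone 2 replicate 1, lay among the TET2-S97E values.

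Atf3 measured 2.09 and 3.26 CPM in TET2-WT clone 1, 3.30 and 2.41 in TET2-WT clone 2, 7.001 and 10.9 in TET2-S97E clone 1 and 3.79 and 1.303 in TET2-S97E clone 2. Both libraries of TET2-S97E clone 1 were above all TET2-WT libraries, whereas those of clone 2 lay on either side of them. The genotype difference of 1.06 ± 0.54 (SE, n = 4 and 4, edgeR adjusted p = 0.272) became -0.13 without TET2-S97E clone 1 (adjusted p = 0.924) and 1.695 without TET2-S97E clone 2 (adjusted p = 0.0151). The difference between the TET2-S97E clones was -1.84 ± 0.50 (clone 2 against clone 1, SE, n = 2 and 2, edgeR adjusted p = 0.0663). DESeq2 called it (adjusted p = 0.00407) and edgeR with a replicate block did too (0.0491).

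Atf4 measured 338 and 396 CPM in TET2-WT clone 1, 449 and 240.1 in TET2-WT clone 2, 329 and 312 in TET2-S97E clone 1 and 369 and 268 in TET2-S97E clone 2. Asns measured 50.3 and 52.1 CPM in TET2-WT clone 1, 66.2 and 30.3 in TET2-WT clone 2, 38.3 and 34.0 in TET2-S97E clone 1 and 50.7 and 25.4 in TET2-S97E clone 2. Chac1 measured 19.2 and 20.2 CPM in TET2-WT clone 1, 31.2 and 8.62 in TET2-WT clone 2, 20.7 and 14.9 in TET2-S97E clone 1 and 25.7 and 8.24 in TET2-S97E clone 2. All 3 genes were lowest in replicate 2 of clone 2 within each genotype, and the genotypes overlapped. In TET2-S97E clone 2, 0 of 10 members were higher in replicate 2, beside 48.7% of all genes. In TET2-WT clone 1 all 10 were, by ratios of 1.03 to 1.56, beside 52.4%. The number was 2 of 10 in TET2-WT clone 2, beside 50.3%, and 3 of 10 in TET2-S97E clone 1, beside 48.9%.

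Sesn2 measured 21.4 and 23.6 CPM in TET2-WT clone 1, 26.6 and 13.8 in TET2-WT clone 2, 14.6 and 14.3 in TET2-S97E clone 1 and 34.9 and 22.8 in TET2-S97E clone 2. Clone 2 of TET2-S97E lay above clone 1 without overlap, as for 26.3% of all genes tested (1.00 ± 0.31 for clone 2 against clone 1, SE, n = 2 and 2, edgeR adjusted p = 0.102). DESeq2 called this difference (adjusted p = 0.0294). Without 1 library the Sesn2 difference ran from 0.62 to 1.28. Hspa5 measured 713 and 733 CPM in TET2-WT clone 1, 678 and 811 in TET2-WT clone 2, 817 and 765 in TET2-S97E clone 1 and 841 and 681 in TET2-S97E clone 2. Xbp1 measured 122 and 131 CPM in TET2-WT clone 1, 134 and 140.5 in TET2-WT clone 2, 102 and 103 in TET2-S97E clone 1 and 134 and 115 in TET2-S97E clone 2. Genotypes overlapped for all 3 genes, and for Xbp1 the overlap came from replicate 1 of TET2-S97E clone 2.

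Clones of one genotype were compared to show how far lines of the same genotype differ. Between the TET2-S97E clones edgeR called 0 of 10 members, where 6.17% of 14459 genes were called, 2 had an unadjusted p under 0.05, beside 19.5%, and DESeq2 called 2, beside 5.29%, in both cases Sesn2 and Atf3. Between the TET2-WT clones edgeR called 0 of 10, where 0.858% of genes were called, 0 had an unadjusted p under 0.05, beside 20.5%, and DESeq2 called 0, beside 3.5%.

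Among the other pathway genes of the TET2 table, Stc2, a secreted glycoprotein induced by ER stress, rose in TET2-S97E (log2 fold change 1.71 ± 0.29, SE, edgeR adjusted p = 0.0119), from 4.08, 4.40, 2.79 and 4.97 CPM in TET2-WT to 9.32, 20.0, 13.2 and 10.7 in TET2-S97E. Cth, an enzyme of cysteine synthesis, fell (-2.12 ± 0.45, edgeR adjusted p = 0.0260), from 6.39, 6.46, 10.8 and 7.24 CPM to 0.756, 1.00, 3.44 and 1.89. Farsb, a subunit of phenylalanyl-tRNA synthetase, rose (0.86 ± 0.19, edgeR adjusted p = 0.0277), and the early gene Fosl1 fell (-0.80 ± 0.16, adjusted p = 0.0224). None of the 4 calls held with counts summed per clone (edgeR adjusted p from 0.277 for Stc2 to 0.373 for Farsb), and when clone entered as a random effect Cth was called (limma adjusted p = 0.0425) but Stc2 (0.0764), Fosl1 (0.0827) and Farsb (0.104) were not. In the fit of all 8 libraries these were the only genes called in their lists. The lists held 11 tested regulatory targets, 19 amino acid genes, 20 synthetases and 10 early genes. The shares called were 9.09%, 5.26%, 5% and 10%, beside 6.98% of all genes. The list medians were -0.0224, -0.195, 0.194 and -0.316. The eIF2α, sensor, chaperone and degradation lists held no call between genotypes by edgeR, with 1, 1, 2 and 3 genes at an unadjusted p under 0.05 and 0, 1, 0 and 0 called by DESeq2.

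Between the TET2-S97E clones, Atf6 was lower in clone 2 (-1.06 ± 0.17, SE, edgeR adjusted p = 0.00777), at 373 and 377 CPM in clone 1 and 189.5 and 169.7 in clone 2. Fgf21, a hormone that ATF4 induces, measured 12.3 and 29.0 CPM in clone 1 and 2.02 and 0.489 in clone 2 (-4.10 ± 0.77, edgeR adjusted p = 0.0150). Dars and Gpt2 were lower in clone 2 and Slc1a4 was higher (edgeR adjusted p from 0.0301 to 0.0408). Each of these calls was lost in 5 of 8 fits without 1 library. Over the 8 the log2 fold change ran from -1.21 to -0.63 for Dars, -1.195 to -0.64 for Gpt2 and 0.64 to 1.21 for Slc1a4. Of the early genes, Jun was lower in clone 2 (-1.66, edgeR adjusted p = 0.00129) and Egr2 was higher (1.57, adjusted p = 0.0432), while Atf3 was lower without a call. Leaving out 1 library ended the Egr2 call in 5 of 8 fits (1.015 to 1.93 over the 8) and the Jun call in 0. Muscle markers moved with this contrast. Of 4 myoblast markers 3 were lower in clone 2, Myod1 (-2.36, edgeR adjusted p = 0.00117), Des (-1.59, 0.0140) and Cdh15 (-1.41, 0.00929). The myotube marker Myh3 was lower too (-2.59, edgeR adjusted p = 0.0293), a call lost in 5 of 8 fits without 1 library (-3.06 to -1.89 over the 8). The part of these markers in the differences above was not tested.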

How the data were processed

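Per the labels and the study's methods, the authors trimmed paired reads with Trim Galore 0.4.5 after bcl2fastq 2.17, aligned them with STAR 2.5.3a to GRCm38 and made the deposited counts per gene with featureCounts 1.5.3 and GENCODE M12. The strand setting of the counting is not given in the sources used here. Of 49585 Ensembl identifiers, 49326 were matched to GENCODE M21 for names and lengths.

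From these counts, libraries were scaled by TMM in edgeR 4.0.16 (R 4.3.3), each table alone, so no test crosses tables. Totals ran from 17883417 to 37790358 counts, which cover counting error only. Genes were kept by filterByExpr, leaving 14329 for the 4 groups of the first table, 13433 between TET2 genotypes and 14459 between clones. edgeR's quasi-likelihood test was used with 1 mean per group (or per clone), and a gene was called at a Benjamini-Hochberg adjusted p under 0.05 over all genes tested. Alternatives were DESeq2 1.42.0, its size factors, other count filters, each library left out, a replicate block, 1 day alone and, for TET2, summed clones, limma 3.58.1 with a clone effect and each clone left out. Scripts were tested on simulated data.

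The members and the gene lists were chosen with earlier results of these data known. Genes named beyond the members are the edited genes, up to 3 called genes with the lowest adjusted p per list and comparison, the gene of each list with the highest CPM, and the 5 genes most correlated with Trib3 and with Hspa5, of which 1 is not reported here. Mars, markers and genes outside that rule were named after their values were seen. Promoters came from RefSeq (GRCm38.p6), where all 10 members were matched.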

Additional observations from a re-analysis of the deposited data

How the results depend on the processing

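With 2 libraries a group, the calls on members rested on few samples. DESeq2 called 2 members between genotypes at d0, 1 at d8, 3 between days in AMPK-KO and 2 between the TET2-S97E clones, against 0, 0, 1 and 0 with edgeR, where it called 5.28%, 6.25%, 9.54% and 5.29% of the genes with any count. Without a filter on low counts the numbers were 2 at d0, 4 at d8, 5 between days in WT, 5 in AMPK-KO, 2 for the difference between the AMPK-KO effects and 2 between the TET2-S97E clones, in fits that called 8.08%, 9.98%, 13.1%, 12.1%, 1.79% and 6.56% of all genes. Fitting the libraries of d8 alone called 1, beside 5.61% of all genes. Leaving out each library gave 0 to 1 members between days in WT, 0 to 1 in AMPK-KO, 0 to 1 between the TET2 genotypes and 0 to 1 between the TET2-S97E clones. Between TET2 genotypes 0 were called with counts summed per clone, 0 with clone as a random effect, 0 without TET2-WT clone 1, 0 without TET2-WT clone 2, 0 without TET2-S97E clone 1 and 2 without TET2-S97E clone 2, beside 0%, 1.24%, 1.29%, 4.39%, 5.63% and 8.42% of all genes. Atf3 turned to -0.13 on the log2 scale without TET2-S97E clone 1. Why these values moved was not tested. Over 1120 refits of a member's log2 fold change, 82 had the other sign, each with an unadjusted p of at least 0.05 as reported, 24 kept a call, 21 lost one and 33 gained one. Of 781 refits of called list genes, 0 had the other sign and 261 lost the call.

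With a replicate block, 1 member was called between genotypes at d0 (Atf3), 2 between days in AMPK-KO, 0 between TET2 genotypes (Ddit3, adjusted p = 0.0590 in edgeR) and 1 between the TET2-S97E clones, beside 5.16%, 12.9%, 6.39% and 10.7% of all genes. Same-numbered libraries correlated at 0.131 to 0.41 in the first table and at -0.0785 to 0.564 in the second. All 6 values of the first table were above 0.1, but each group has only 2 numbers and the labels tie no number to a knockout line, batch or day, so the numbers were not taken as pairs.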
